A study of Mus musculus with 79 samples.

Results

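A single dose of ketamine was compared with saline in the ventral hippocampus (vHipp) of mice, across stressed and unstressed animals together. The libraries were chosen by their sample titles, which name region, stress group, treatment and mouse, and stress group was kept as a covariate. They were 20 vHipp libraries of ketamine-treated mice and 20 of saline-treated mice, which is all 40 vHipp libraries among the 79 libraries of the series. The other 39 were taken from the medial prefrontal cortex (mPFC) of the same mice and are used here only for comparison.

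All animals were male, wild-type CD-1 (ICR) mice, an outbred stock, aged 9 to 10 weeks per the study's methods. In equal numbers within each treatment, they were either undefeated controls (CTRL) or mice that had gone through chronic social defeat stress (CSDS) for 21 days, in which a mouse is attacked repeatedly by an aggressive resident. Each mouse then received 1 intraperitoneal injection of saline or of (R,S)-ketamine at 10 mg/kg, and its brain was taken 7 days later. The vHipp groups therefore held 10 CTRL saline, 10 CTRL ketamine, 10 CSDS saline and 10 CSDS ketamine mice, 1 library per mouse. In the mPFC the CSDS ketamine group held 9. Tissue was punched at 1 mm diameter from slices of 200 µm, so a punch holds every cell type at that place and may catch tissue next to it. The mice lived in social groups, and their housing group and social rank, which the labels do not give, were not used here.

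Ketamine blocks the NMDA receptor, a glutamate-gated ion channel, and a single low dose is known to relieve depressive symptoms for days after the drug itself has left the body. The lasting effect is usually traced to plasticity at glutamate synapses, with release of the neurotrophin BDNF, signalling through its receptor TrkB and the kinase mTOR, and changed neuronal excitability, including the M-current carried by KCNQ potassium channels. The ventral part of the hippocampus projects to the prefrontal cortex, the amygdala and the nucleus accumbens and is known for its part in anxiety and stress responses. The time examined here is a week after the dose, so the data speak of RNA levels that outlast the drug, not of the acute response.

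The vHipp libraries held from 11782570 to 41767119 counts, with a median of 20121099. Saline libraries averaged 21080173 ± 5241871 counts and ketamine libraries 21373020 ± 6441685 (SD, n = 20 each), and a two-sided permutation test within stress groups found no difference beyond that spread (p = 0.876). The tissue label held up against its markers. Markers of hippocampal fields, such as Prox1 of the dentate gyrus and Zbtb20, summed to a median of 1404 CPM (counts scaled to the library's effective size) in vHipp saline libraries and 618 in mPFC saline libraries, and markers of cortical layers to 432 and 979. One library stood apart in several marker lists, that of CSDS ketamine mouse 11, and results that rest on it are given with and without it. Its astrocyte markers summed to 15116 CPM and its microglial markers to 765.7 CPM, where the highest saline libraries had 8074 and 444.3 CPM.

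No gene differed between ketamine and saline in the vHipp after correction for multiple testing. Of 28991 genes tested with edgeR's quasi-likelihood test, 0 had an adjusted p under 0.05 and 915 had an unadjusted p under 0.05, which is 3.16% of the genes, 427 higher and 488 lower with ketamine. DESeq2 likewise gave 0 at an adjusted p under 0.05 and 664 at an unadjusted p under 0.05, and limma-voom 0 and 777. The smallest adjusted p was 0.21, for Gm11414, a processed pseudogene with a mean of only 0.0258 CPM. Genes measured well moved little. Among the 15531 genes with a mean of at least 1 CPM, the standard error of the log2 fold change had a median of 0.0637, 99% of the absolute changes lay under 0.305 and 30 genes exceeded 0.5. Only 250 of these genes, or 1.61%, had an unadjusted p under 0.05, compared with 665 of the 13460 scarcer genes, or 4.94%. The median change over all tested genes was 0.000303 on the log2 scale. In this fit, every gene named from here on is therefore described by its level in the libraries and by a p that did not survive correction over all genes, and genes listed as leading were picked for their small p in these same libraries.

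The receptor that ketamine blocks showed no detectable difference in its subunit RNAs. None of the 7 NMDA receptor genes had an unadjusted p under 0.05, and their median log2 fold change was 0.09, or 0.0543 without mouse 11. Grin1, the subunit every NMDA receptor needs, ran from 489 through a median of 617 to 690 CPM in saline mice and from 399 through 625 to 712 CPM in ketamine mice. The ranges overlapped almost entirely, and the log2 fold change was 0.02 with a 95% confidence interval from -0.0744 to 0.114. The glutamate-binding subunits Grin2a and Grin2b, which dominate in forebrain, had log2 fold changes of -0.01 (95% interval -0.147 to 0.128) and 0.01 (-0.151 to 0.176). Grin2c had the largest estimate of the family, 0.18 with an interval from -0.0404 to 0.393, and it read 0.10 without mouse 11, whose library was the highest. Of the other glutamate receptors, 0 of 9 AMPA and kainate subunits and 0 of 7 metabotropic receptors had an unadjusted p under 0.05. The AMPA subunit Gria1 had medians of 1241 CPM with saline and 1218 CPM with ketamine.

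The channels of the M-current were likewise within the spread between mice. Kcnq3, a pore-forming subunit, had a log2 fold change of 0.01 with a 95% interval from -0.131 to 0.153. Kcnq5 varied widely from mouse to mouse, from 83.9 to 309 CPM with saline and from 72.2 to 309 with ketamine, which left an interval from -0.283 to 0.331 around 0.02. Of the 12 genes of the list of M-current channels, calmodulins and calcineurin subunits, 0 had an unadjusted p under 0.05.

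In the pathway from BDNF through TrkB to mTOR, 1 of 22 genes was higher at an unadjusted p under 0.05, against a background of 1.47% of all genes, and 0 were lower. Bdnf itself had a median of 43.4 CPM with saline and 41.7 with ketamine, a log2 fold change of -0.09 (95% interval -0.241 to 0.0587). Ntrk2, which encodes TrkB, had medians of 541 and 572 CPM and a log2 fold change of 0.10 (p = 0.118), and its highest ketamine value, 949 CPM, came from mouse 11, without which the change was 0.05. Mtor was at 0.02 (-0.0827 to 0.122) and Eef2k, the kinase of elongation factor 2 that has been tied to ketamine's fast action, at -0.02 (-0.101 to 0.0539). The 1 gene past the unadjusted threshold was Eif4ebp1, a repressor of cap-dependent translation that mTOR inactivates. It ran from 0.628 through 1.48 to 2.67 CPM with saline and from 0.718 through 1.83 to 3.91 CPM with ketamine, overlapping over most of the range (log2 fold change 0.34 ± 0.158 SE, p = 0.037), and without mouse 11 its p was 0.0707.

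**Figure D1:**
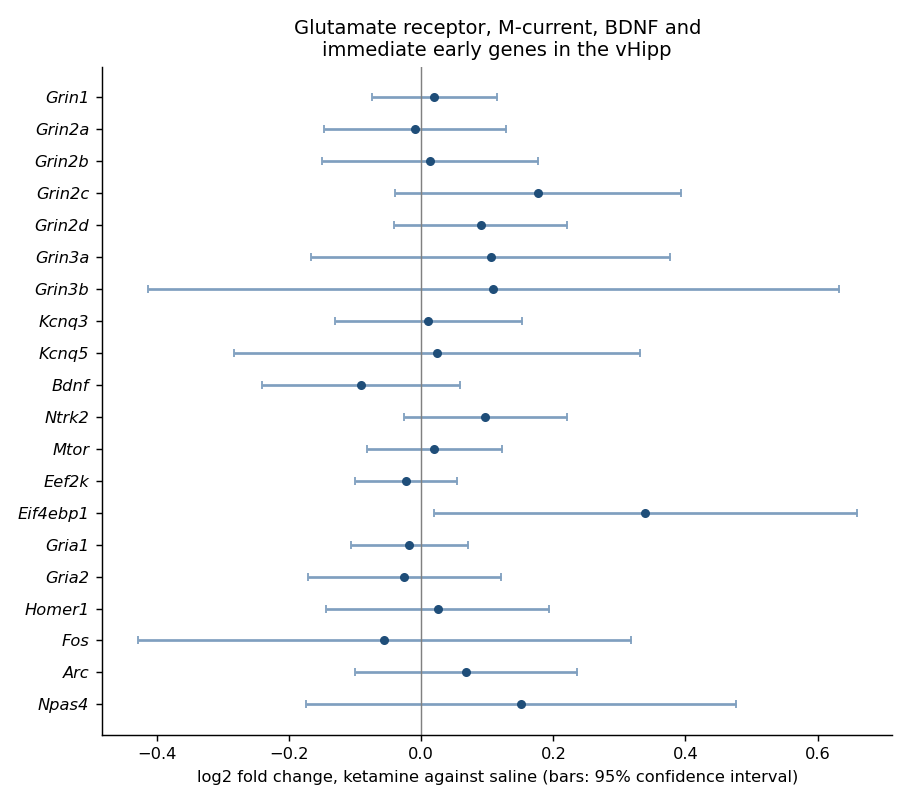
Log2 fold change of ketamine against saline in the vHipp for 20 genes of glutamate receptors, the M-current, the BDNF pathway and immediate early genes, with bars for the 95% confidence interval from the fit over 40 libraries. Apart from Eif4ebp1, whose estimate was 0.34, every interval drawn includes 0, and that of Grin1 is among the narrow ones.

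Few synaptic genes passed the unadjusted threshold, and their changes were small. Of 26 genes of the postsynaptic density, 3 were higher at an unadjusted p under 0.05, where 1.47% of all genes were, Ppp1r9b (spinophilin; log2 fold change 0.14), the scaffold Dlgap3 (0.13) and the scaffold Shank1 (0.15). Shank1 had medians of 780 CPM with saline and 807 CPM with ketamine and reached 1527 CPM with ketamine. The highest value was that of mouse 11, and without that mouse 0 of the 26 genes had an unadjusted p under 0.05. Of the 26 estimates 19 were above 0 (median 0.0307), 25 without mouse 11 (0.0352) and 16 without mice 9 and 13 (0.0236), where 14546 of all 28991 genes were above 0. Of 26 presynaptic genes and 13 GABA-A receptor subunits, 0 passed. Among 17 markers of inhibitory interneurons 1 was higher, Reln, the secreted glycoprotein reelin, with a log2 fold change of 0.31 (p = 0.034). Its estimate was 0.18 (p = 0.142) without mouse 11.

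Genes that report recent neuronal activity held no member past the unadjusted threshold. Of 22 immediate early genes, 0 had an unadjusted p under 0.05 in the vHipp, and their median log2 fold change was 0.02. Npas4 had medians of 4.21 and 4.73 CPM with saline and ketamine, and Nr4a1 of 24.0 and 24.7. In the mPFC of the same mice 4 of the 22 were higher at an unadjusted p under 0.05, against a background of 1.31% of 28993 genes higher there, but the difference between the regions had an unadjusted p under 0.05 for 0 of the 22. With the mouse as a block it did for 1, Fos, named after its value was seen (-0.47 in the vHipp relative to the mPFC, p = 0.025).

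The receptors and hormones of other drug and stress systems held few genes past the unadjusted threshold. These were 0 of 8 opioid receptors and peptides, 1 of 16 monoamine receptors and 1 of 13 genes of the glucocorticoid and CRH axis, against 3.16% of all genes in either direction. The monoamine receptor was Adra1b, an adrenergic receptor, with medians of 2.91 CPM with saline and 3.87 CPM with ketamine (log2 fold change 0.28, p = 0.0317). The gene of the CRH axis was Crhr2, with medians of 3.09 and 2.29 CPM (-0.32, p = 0.0447). Without mouse 11 the p of Adra1b was 0.0755 and that of Crhr2 0.0602. Among 16 clock genes, 12 genes of adult neurogenesis and 16 antioxidant genes 0 passed, and among 16 class I MHC and interferon-stimulated genes 1 was lower, Bst2, an antiviral membrane protein (-0.45, p = 0.033), which had an unadjusted p under 0.05 in 15 of 24 alternatives.

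Genes of the meninges and of fibroblasts were lower with ketamine in part, and Ptgds, Aebp1 and Fmod were among the leading lower genes. The meninges are the sheets of connective tissue that wrap the brain, and their fibroblasts make collagen-binding matrix proteins, retinoid-handling proteins and the synthase of prostaglandin D2. Of 10 marker genes, 4 were lower with ketamine at an unadjusted p under 0.05, 0 were higher, 9 had a negative estimate and the median log2 fold change was -0.33, where 1.68% of all genes were lower and the median over all genes was 0.000303. Without mouse 11 the count was 7 of 10, and without mice 1 to 4 it was 2. The summed level of the 10 genes ran from 65.5 through 207 to 416 CPM with saline (208 ± 100, SD, n = 20) and from 56.9 through 128.8 to 221 CPM with ketamine (134.8 ± 43.9, SD, n = 20). The highest saline sum was that of CSDS mouse 4, which also had the highest sum of blood genes. Most of the summed level was Ptgds, and which cells its RNA came from was not tested. The other 9 genes together ran from 25.7 through 46.7 to 90.2 CPM with saline (51.2 ± 17.7, SD, n = 20) and from 22.1 through 43.7 to 103.6 CPM with ketamine (49.6 ± 21.0), so without Ptgds the groups overlapped over nearly their whole range.

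Ptgds, which encodes the prostaglandin D2 synthase, led the list. It ran from 39.8 through a median of 147.3 to 339 CPM in saline mice (156 ± 87.2, SD, n = 20) and from 29.6 through 79.9 to 155 CPM in ketamine mice (85.2 ± 35.9). In 9 of 20 saline libraries it stood above the highest ketamine library, while the low ends overlapped. The log2 fold change was -0.86 ± 0.213 SE (p = 0.000223 unadjusted, adjusted p = 0.494 by edgeR), and a permutation of treatment within stress groups gave p = 0.00218. Within CTRL mice it was -1.0 and within CSDS mice -0.71. The mPFC of the same mice had -0.54 ± 0.224 (p = 0.0209), and the 2 regions did not differ detectably (p = 0.324).

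Aebp1 and Fmod, a pair of matrix genes outside the marker list, were taken from the leading genes by their small p. Aebp1, a secreted collagen-binding protein, ran from 2.13 through 7.62 to 15.3 CPM with saline and from 1.14 through 4.69 to 7.46 CPM with ketamine (log2 fold change -0.65 ± 0.172, p = 0.000504). Fmod, the small proteoglycan fibromodulin that organizes collagen fibrils, ran from 1.59 through 6.07 to 12.3 CPM and from 1.56 through 3.38 to 6.8 CPM (-0.66 ± 0.195, p = 0.00144). For both, the ketamine libraries filled the lower part of the saline range and left its upper part empty. In the mPFC their estimates were -0.23 (p = 0.301) and -0.22 (p = 0.309). Of the markers, Slc22a6, an organic anion transporter, had medians of 2.26 CPM with saline and 1.62 CPM with ketamine (-0.58, p = 0.00998), Slc47a1, a cation exporter, had medians of 0.1 and 0.0941 CPM and a highest saline value of 3.1 CPM (-1.87, p = 0.00138, permutation p = 0.115), and the growth factor Igf2 passed barely (-0.54, p = 0.0498). The estimate of Slc47a1 ran from -2.07 to -0.516 over 23 alternatives, and Igf2 had an unadjusted p under 0.05 in 11 of 24. Col1a1, the main fibrillar collagen, was at -0.00, and Dcn, decorin, at 0.30 (p = 0.327), so the list did not move as a block. Slc13a4, a sulfate transporter (-0.72, p = 0.00416), and Spp1, osteopontin (-0.82, p = 0.0135), both known from meningeal cells and named after their values were seen, were also lower, though Spp1 had p = 0.412 with limma-voom, where its estimate was -0.315.

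The promoters of the 3 leading genes of this kind are shown because these genes led the lower ones of the matrix and meninges. Each runs from 250 bases before to 50 bases after the start of transcription, read in the direction of transcription from the RefSeq annotation of GRCm38.p6, and capitals mark a match to 1 of 3 promoter motifs.
Ptgds, chr2:25469700-25469999, minus strand: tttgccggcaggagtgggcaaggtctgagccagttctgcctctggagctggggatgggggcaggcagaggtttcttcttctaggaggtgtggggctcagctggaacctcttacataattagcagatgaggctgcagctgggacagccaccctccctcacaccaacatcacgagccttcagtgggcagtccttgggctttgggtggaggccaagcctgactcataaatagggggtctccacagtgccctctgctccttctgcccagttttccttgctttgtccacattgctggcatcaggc
Aebp1, chr11:5861616-5861915, plus strand: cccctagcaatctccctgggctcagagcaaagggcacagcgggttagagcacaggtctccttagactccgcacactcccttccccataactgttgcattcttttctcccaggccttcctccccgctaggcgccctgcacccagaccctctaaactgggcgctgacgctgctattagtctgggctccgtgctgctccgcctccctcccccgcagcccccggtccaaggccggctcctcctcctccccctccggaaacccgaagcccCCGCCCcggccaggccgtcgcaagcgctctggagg
Fmod, chr1:134037004-134037303, plus strand: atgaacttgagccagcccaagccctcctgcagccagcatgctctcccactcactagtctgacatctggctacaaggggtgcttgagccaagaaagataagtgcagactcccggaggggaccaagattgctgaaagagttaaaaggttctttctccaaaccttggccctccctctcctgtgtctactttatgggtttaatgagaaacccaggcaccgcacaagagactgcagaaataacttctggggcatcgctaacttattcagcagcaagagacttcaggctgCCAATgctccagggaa
The motifs searched on both strands were the TATA box motif TATAAA, which 13.6% of 32851 promoter windows of this length hold, the motif CCAAT, which 37.4% hold, and the GC box motif GGGCGG, which 35.7% hold, and their letters do not overlap. The Ptgds window had a match to none of them, the Aebp1 window 1 match to GGGCGG on the opposite strand, and the Fmod window 1 match to CCAAT. Both matches lay after the start of transcription, by 15 bases in Aebp1 and 34 in Fmod. A match is a run of letters and not evidence of binding.

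Markers of the choroid plexus, the epithelium that secretes cerebrospinal fluid inside the ventricles, had large fold changes, which rested mainly on 2 saline libraries. In the fit over 40 libraries 8 of 12 markers were lower with ketamine at an unadjusted p under 0.05, where 1.68% of all genes were, with a median log2 fold change of -1.17. That median was -0.254 with DESeq2 and -0.275 with limma-voom on the same libraries. Ttr, transthyretin, the signature secretory product of that epithelium, had a median of 0.297 CPM with saline and 0.133 CPM with ketamine, but its highest saline value was 654 CPM and its highest ketamine value 9.5 CPM. Its log2 fold change was -4.40 ± 1.14 (p = 0.000364), while the permutation test gave p = 0.343. Without CSDS saline mice 9 and 13, the pair with most Ttr, the sign turned to 0.45 (p = 0.521) and 2 of 12 markers were lower, with a median of -0.04. Without mouse 9 alone, 5 were lower.

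The summed choroid plexus level was 981.5 CPM in mouse 9 and 204 in mouse 13, next to 71.5 to 132.3 in all ketamine libraries, and the median was 104.7 CPM with either treatment. Much of that sum is Enpp2, autotaxin, which other brain cells also express, at a mean of 93.8 CPM with saline and 76.9 CPM with ketamine. Kcnj13, a potassium channel of the epithelium, was at most 0.125 CPM in the ketamine libraries and reached 3.41 CPM with saline (log2 fold change -3.38). Split by stress, 0 of the 12 were lower among CTRL mice (background 1.57% of genes lower) and 9 of 12 among CSDS mice (background 1.51%), where mice 9 and 13 belong. In bulk tissue, fewer cells of a type and less RNA per cell cannot be told apart, and whether the punches held different amounts of meninges or choroid plexus was not tested. Blood genes can show how much vessel content a punch held. All 5 had a negative estimate and 0 an unadjusted p under 0.05, with a summed level from 40.6 through 59.7 to 273 CPM with saline and from 24.3 through 61.0 to 93.3 CPM with ketamine. The highest saline value was that of mouse 4 alone, and the medians were close.

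**Figure D2:**
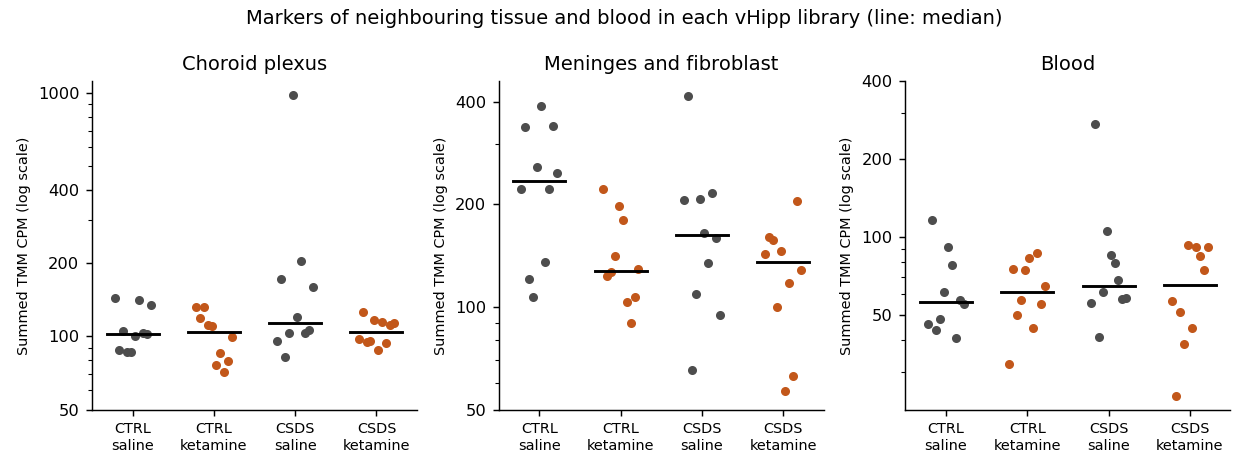
Summed TMM-normalised CPM (log axis) of the choroid plexus, meninges and fibroblast, and blood lists in each of the 40 vHipp libraries, by group, with a line at the median of 10 mice. A single CSDS saline library at 981 CPM stands above all others for choroid plexus. For meninges, where Ptgds makes up most of the sum, the saline libraries spread higher than the ketamine libraries among CTRL mice. Among CSDS mice that rests on mouse 4 at 416 CPM, as the next saline library had 215 CPM and the highest ketamine library 205 CPM.

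Of the 15 leading genes with a mean of at least 1 CPM, 9 were lower and 6 higher with ketamine, and their adjusted p ran from 0.494 to 1. The lower ones include Ttr, which had medians under 1 CPM in either group and met that mean mainly through a few high saline libraries. The gene with the smallest p was Gm527, a predicted gene with no role given here. It ran from 2.51 through 3.57 to 4.36 CPM with saline and from 2.07 through 2.8 to 3.56 CPM with ketamine. Of the 20 ketamine libraries, 0 lay above the saline median, and 10 of 20 saline libraries lay above the highest ketamine library. The log2 fold change was -0.31 ± 0.0728 (p = 0.000132, permutation p = 9e-05), at -0.28 among CTRL and -0.33 among CSDS mice. The mPFC had 0.01 ± 0.086, and the difference between the regions had p = 0.0066 (adjusted p 1).

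The other lower genes were Mindy4, a deubiquitinase, with medians of 7.31 and 6.42 CPM (-0.18, p = 0.000938), Sphk1, the kinase that makes sphingosine 1-phosphate, with 1.21 and 0.832 CPM (-0.56, p = 0.00153), Adgrg6, an adhesion G protein-coupled receptor known from peripheral myelination, with 1.66 and 1.29 CPM (-0.42, p = 0.0017), and Slc22a4, a transporter of ergothioneine, with 8.8 and 7.6 CPM (-0.21, p = 0.00209). None of these 4 had an unadjusted p under 0.05 in the mPFC. Among genes with a mean of at least 1 CPM and an unadjusted p under 0.05, 2 further lower genes belonged to the 5 largest changes, the olfactory receptor gene Olfr550 (-1.01, p = 0.0341, under 0.05 in 18 of 24 alternatives) and Ctxn3, a small neuronal membrane protein (-0.91, p = 0.00588, under 0.05 in 22 of 24).

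**Figure D3:**
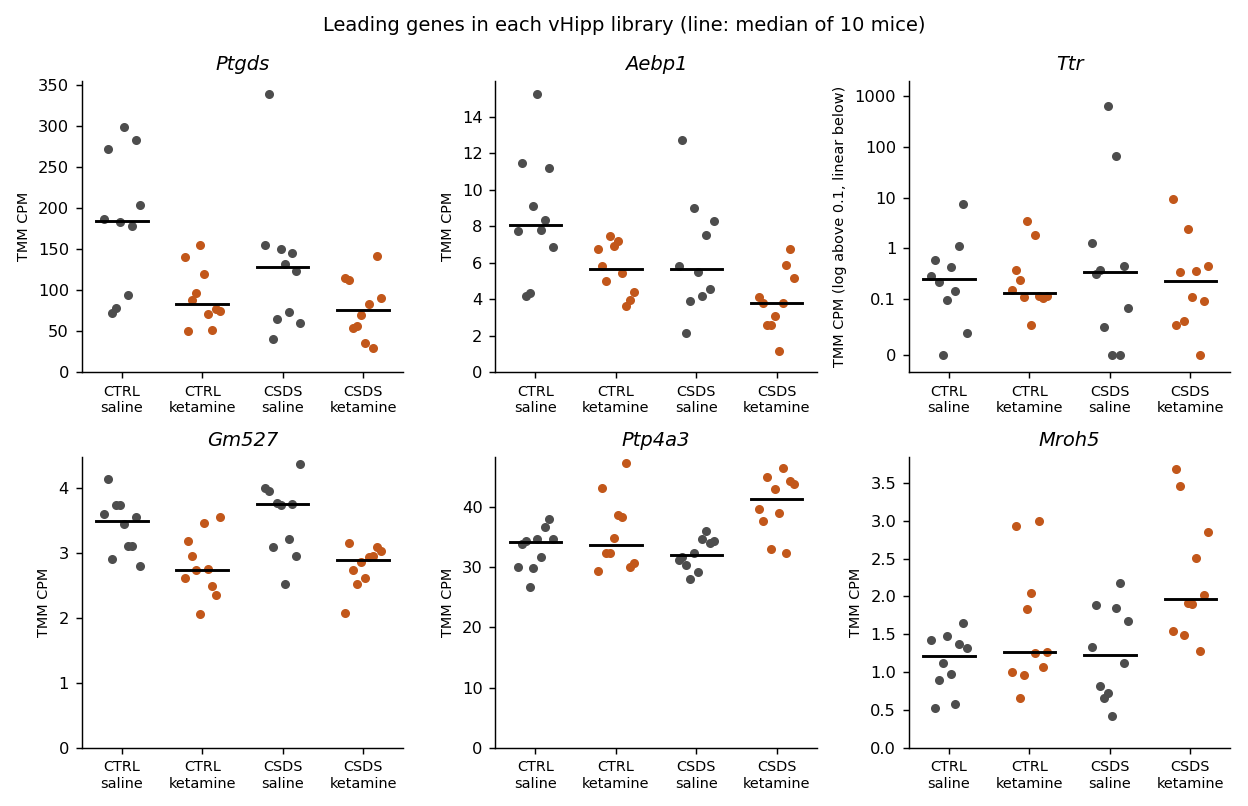
TMM-normalised CPM of 6 leading genes in each vHipp library by group, with a line at the median of 10 mice, on linear axes from 0 apart from Ttr, whose axis is logarithmic above 0.1. Ptgds and Aebp1 lack high values in both ketamine groups, Gm527 is lower and Ptp4a3 and Mroh5 higher with much overlap, and the Ttr change rests on a few libraries up to 654 CPM.

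The higher genes included a pair of neighbours on chromosome 15. Ptp4a3, a protein tyrosine phosphatase of the PRL family (chr15:73723145-73758766, GRCm38), ran from 26.8 through 33.1 to 38 CPM with saline and from 29.3 through 38.5 to 47.3 CPM with ketamine. In 11 of 20 ketamine libraries it stood above the highest saline library. The log2 fold change was 0.22 ± 0.0569 (p = 0.000379), 0.33 among CSDS mice (p = 0.000124) and 0.11 among CTRL mice (p = 0.166), and the interaction of treatment with stress had p = 0.0524 before adjustment. In the mPFC it was 0.17 ± 0.0581 (p = 0.00526).

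Mroh5, a HEAT-repeat gene on the other strand (chr15:73760067-73839699), lies 1301 bases beyond the end of Ptp4a3. The pair is transcribed toward each other, and whether reads were counted by strand is not given in the sources used here. Mroh5 ran from 0.419 through 1.22 to 2.18 CPM with saline and from 0.656 through 1.87 to 3.68 CPM with ketamine (log2 fold change 0.67 ± 0.19, p = 0.00101), and it was at 0.40 (p = 0.00449) in the mPFC. Dennd3, a guanine nucleotide exchange factor for a Rab GTPase, lies on the same stretch (chr15:73512560-73572242) and had medians of 6.8 and 8.12 CPM in the vHipp (0.19, p = 0.00244), with -0.05 in the mPFC. The gene between them, Slc45a4, a sugar transporter family member, was at 0.05 (p = 0.237). It was the remaining gene within 250 kb of Ptp4a3 with a mean of at least 1 CPM, and the other 3 were leading genes picked for their small p.

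The other 3 higher genes lay outside this stretch, Ctnnd2 also on chromosome 15. Mroh7, another HEAT-repeat gene, ran from 4.17 through 7.1 to 9.12 CPM with saline and from 4.95 through 8.44 to 13.9 CPM with ketamine (0.36 ± 0.113, p = 0.00286), and it had 0.34 (p = 0.00295) in the mPFC. Rasal3, a Ras GTPase-activating protein of blood lineage cells, had medians of 2.52 and 3.17 CPM (0.40, p = 0.0018), and Ctnnd2, delta-catenin of dendrites and spines, had 208 and 219 CPM (0.13, p = 0.00194). Ctnnd2 and Rasal3 kept an unadjusted p under 0.05 without mouse 11, at 0.12 and 0.35. The largest increase among genes past the unadjusted threshold with a mean of at least 1 CPM was that of Col11a1, a fibrillar collagen chain. Its median was 10.9 CPM with saline and 27.9 with ketamine, and within CSDS mice it ran from 6.21 through 10.4 to 45.6 CPM and from 14.1 through 34.7 to 54.3 CPM (log2 fold change 1.27, p = 0.00477). Among CTRL mice the medians were 13.7 and 10.8 CPM (0.43, p = 0.314), and the interaction did not separate the stress groups (p = 0.165).

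A second pair of neighbours on chromosome 15 stood out when the genes were set beside the mPFC, and it was picked after its values were seen. Rpl30, a protein of the large ribosomal subunit (chr15:34440505-34443640), had medians of 54.7 CPM with saline and 65.4 with ketamine in the vHipp (0.28 ± 0.106, p = 0.011, permutation p = 0.00971) and a log2 fold change of 0.25 (p = 0.0267) in the mPFC. Of 81 ribosomal protein genes it was the 1 past the unadjusted threshold in the vHipp, a share no higher than the 3.16% of all genes, and reads of such genes can be shared with their processed pseudogenes. Erich5, a glutamate-rich protein of unclear role 9665 bases away (chr15:34453305-34473892), went the other way, with medians of 4.32 and 2.67 CPM (-0.60, p = 0.00877) and a log2 fold change of -1.23 (p = 0.00349) in the mPFC. Of the 8 genes within 250 kb of this pair (both included) with a mean of at least 1 CPM, 4 had a positive estimate in the vHipp. Laptm4b, a lysosomal membrane protein, was also higher there (0.14, p = 0.0192), and in the mPFC Matn2, a matrix protein (-0.21, p = 0.00646), and Rida (-0.18, p = 0.0215) were lower.

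The mPFC values of Erich5 fell into 2 separate ranges, from 0.0855 to 0.624 CPM and from 1.16 to 2.74 CPM. The upper range held 13 of 20 saline mice and 4 of 19 ketamine mice, which were 7 of 10 and 3 of 10 among CTRL mice and 6 of 10 and 1 of 9 among CSDS mice. Both ranges thus occurred in all 4 groups.

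Several of these genes kept their rank from 1 brain region to the other within the same mouse. Over the 39 mice with both libraries, each gene's deviation from its group mean was correlated between vHipp and mPFC, a description whose points share the mouse and the library preparation, for 17 genes in all. Most of the 17 had an adjusted p above 0.05, and the correlation was not computed over all genes for comparison. Rpl30 had Pearson's r = 0.887 and Spearman's rho = 0.837 (permutation p = 1e-05 for each, the smallest possible here, adjusted 8.5e-05), and r = 0.874 without the 2 mice farthest from the median. For Erich5, whose mPFC values fell into 2 separate ranges, no correlation over all mice is given. Ptp4a3 had r = 0.614 and rho = 0.647 (p = 3e-05 and 2e-05, adjusted 0.00017 and 0.000113), with r = 0.643 without the 2 farthest mice. Mroh7 had r = 0.568 and rho = 0.52 (p = 0.00016 and 0.00097, adjusted 0.00068 and 0.00412), falling to 0.468. Mroh5 had r = 0.443 and rho = 0.435 (p = 0.00464 and 0.00584, adjusted 0.0158 and 0.0199), with 0.459 after the same step. For Ptgds, of the meningeal list, r was 0.13 and rho 0.174, and for Aebp1 r was -0.00243. CD-1 is an outbred stock, no genotypes were used here, and a genetic difference between the treatment groups was not tested.

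**Figure D4:**
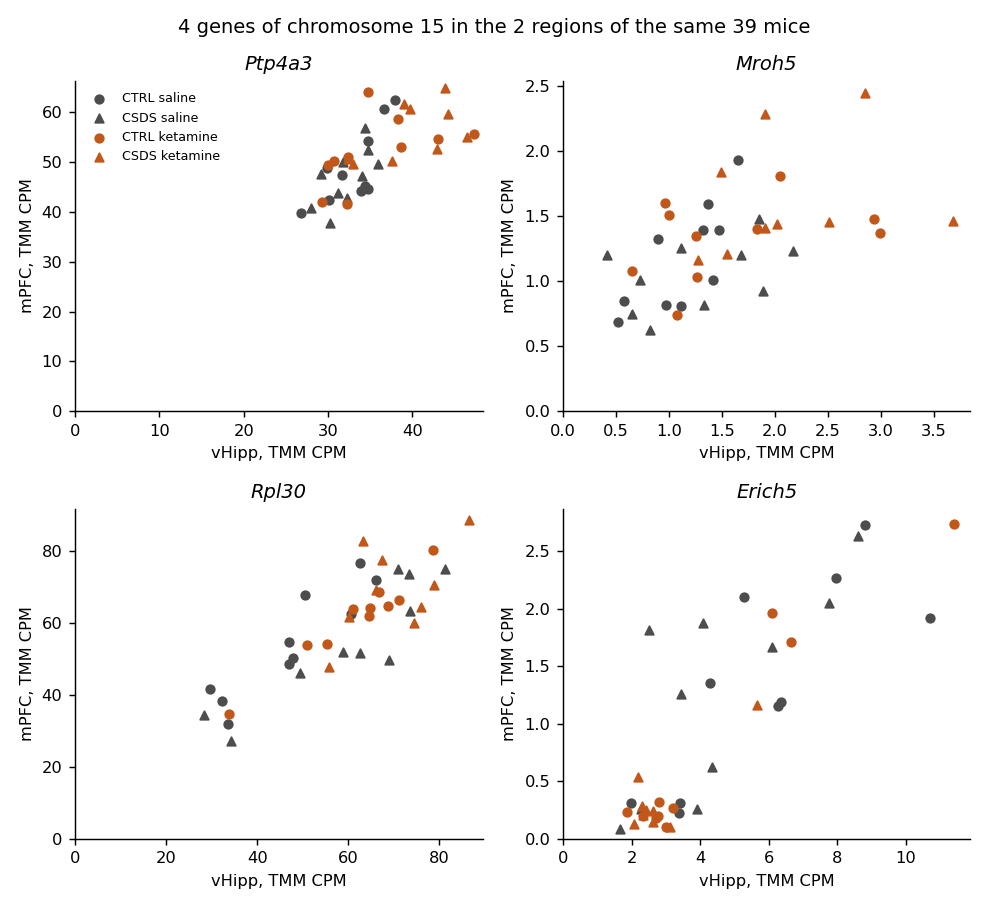
TMM-normalised CPM in the vHipp (x axis) and mPFC (y axis) of the same 39 mice for Ptp4a3, Mroh5, Rpl30 and Erich5, with colour for treatment and marker shape for stress group. Rpl30 lies along a line with r = 0.887 for deviations from group means, and Erich5 in the mPFC splits into a range up to 0.624 CPM and a range from 1.16 CPM.

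Cell types of the tissue itself were described by 27 lists and 3 groups of genes taken by their symbols. Of 12 astrocyte markers 0 had an unadjusted p under 0.05, yet all 12 estimates were above 0, with a median log2 fold change of 0.10. The glutamate transporter gene Slc1a2 had medians of 3308 CPM with saline and 3453 CPM with ketamine, and its highest ketamine value, 8487 CPM, was again that of mouse 11. Summed over the list, the ketamine libraries ran from 5236 through 6314 to 15116 CPM and the saline libraries from 4951 through 6048 to 8074. Without mouse 11 the median was 0.0443 and 9 of 12 estimates were above 0. In the mPFC all 12 estimates were below 0, with a median of -0.07, and the difference between the regions had an unadjusted p under 0.05 for 2 of the 12, both more positive in the vHipp, against 1.77% of 31534 genes, and for 0 of the 12 with the mouse as a block.

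Microglia and vessel cells leaned the same way, by less without mouse 11. Of 12 microglial genes 10 had positive estimates and of 13 endothelial and pericyte genes 12, with 0 past the unadjusted threshold in either list. Their medians were 0.11 and 0.09, and 0.0355 and 0.0232 without mouse 11, where 10 of 12 and 9 of 13 estimates were positive. Cx3cr1, a chemokine receptor of microglia, had a median of 44.5 CPM in either group. Of 29 RNAs encoded by the mitochondrial genome 28 were above 0 with a median of 0.12 and 0 passed, and without mouse 11 the median was 0.0338 with 20 above 0. Oligodendrocyte genes leaned the other way. Of 15, 11 had negative estimates and 0 passed, with a median of -0.15. Without mouse 11 their median was -0.151. Markers that place a punch included 0 of 14 hippocampal field genes, 0 of 10 cortical genes and 0 of 10 striatal and thalamic genes at an unadjusted p under 0.05. Fibcd1, a marker of the CA1 field, varied from 9.45 to 203 CPM among saline mice and from 11.9 to 206 among ketamine mice, a range about as wide in either treatment. Of 95 nuclear genes of oxidative phosphorylation 0 passed.

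**Figure D5:**
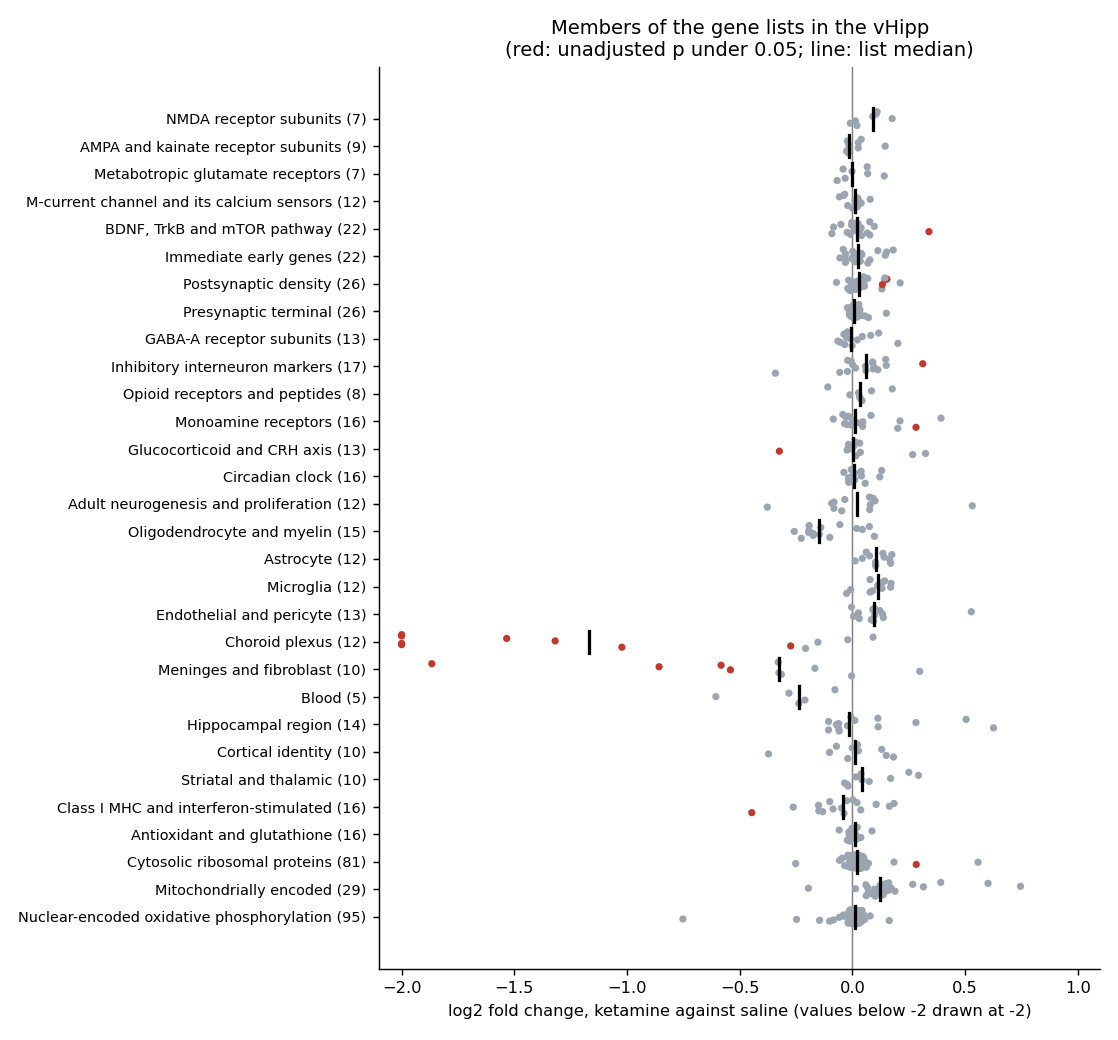
Log2 fold change of each tested member of 30 gene groups in the vHipp, ketamine against saline, with red for an unadjusted p under 0.05, a black line at the list median and values below -2 drawn at -2. The choroid plexus median of -1.17 and the meningeal median of -0.33 lie farthest from 0, and most other medians lie within 0.15 of it.

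The 2 stress groups, which share no library, each gave 0 genes at an adjusted p under 0.05 with edgeR, and DESeq2 gave 0 for each as well. The unadjusted counts were 836 of 28991 genes (2.88%) among CTRL mice and 842 (2.9%) among CSDS mice. The interaction, which asks whether ketamine acted differently after defeat, also gave 0 at an adjusted p and 823 genes, or 2.84%, at an unadjusted p under 0.05 (DESeq2 0 and 523). Among the leading genes, the test of that difference had its smallest p for Ttr (0.0243), where the CTRL estimate was -0.68 and the CSDS estimate -5.73, and the remainder of the leading genes stayed above 0.05. The mPFC comparison gave 0 genes at an adjusted p and 839 (2.89%) at an unadjusted p under 0.05, and the difference between regions 0 and 3.34% of the genes tested. Of the 15 leading genes, 10 had the same sign in the mPFC, and for 4 of those, Ptgds, Ptp4a3, Mroh5 and Mroh7, the unadjusted p there was under 0.05. How many of all genes shared their sign between the regions was not counted, so these counts have no background beside them. Because the same mice gave both regions, the mPFC values are a repeat of the measurement in other tissue and not in other animals.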

How the data were processed

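Bulk RNA from 40 vHipp and 39 mPFC punches was sequenced per the labels with the Illumina Stranded mRNA Prep, and the submitters' processing notes name bcl2fastq 2.20.0.422, CASAVA and GRCm38. Which aligner and counter were used is not given in the sources used here. The authors deposited raw counts, whole numbers of reads per gene and library, without normalization. Here, genes were kept at over 10 counts summed over a region and over 3 libraries with a count. They were fitted with edgeR 4.0.16 (R 4.3.3) with TMM scaling, stress group and treatment as terms and the quasi-likelihood test, two-sided, with Benjamini-Hochberg adjustment over all genes. Levels are TMM-normalised CPM. Permutation tests (scipy 1.17.1, 100000 resamples, two-sided) used log2(CPM + 0.5), with treatment permuted within stress groups. DESeq2 1.42.0, limma 3.58.1, other filters, scalings, covariates and left-out libraries were alternatives. The scripts were tested on simulated data.

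The leading genes are the 15 of smallest p with a mean of at least 1 CPM. To these were added the 5 largest changes at an unadjusted p under 0.05 and that mean, receptor and pathway genes, up to 4 members of each list by p and the first 5 genes each of the interaction and the region difference. Some genes that these rules name are not reported here. Members and lists were chosen with earlier results of these data known. The study's methods removed 1 outlier that they do not name and used the housing group as a covariate, while here no library was removed and the housing group was not used. Libraries of both regions that share a mouse number come from the same mouse, and their deviations from group means had a median correlation of 0.278, against -0.00146 between different mice.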

Additional observations from a re-analysis of the deposited data

Results flagged for a closer look

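Within groups of 10 mice, Dixon's test at the 95% level marked a sample that lay far from its neighbour relative to the spread of the group. It marked 12 groups, 8.33% of those tested, and chance alone marks about 5%. The CSDS ketamine library of mouse 11 accounted for 3, with 399 CPM of Grin1 against 564 in the next lowest, 35.9 CPM of Grin2d against 27.5 in the next highest, and 949 CPM of Ntrk2 against 640.

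The CSDS saline library of mouse 9 was highest for the summed choroid plexus markers, at 981.5 CPM against 204, and lowest for Mtor, at 107.5 CPM against 137.3. Ttr reached 7.61 CPM in CTRL saline mouse 38, where the next value was 1.13 CPM. The summed blood genes reached 273 CPM in CSDS saline mouse 4, against 105.3 in the next.

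Among leading genes, Sphk1 was low in CTRL ketamine mouse 25 (0.234 CPM against 0.574), Rasal3 in CTRL ketamine mouse 21 (1.66 against 2.74) and Dennd3 in CSDS ketamine mouse 6 (5.26 against 6.97). These 3 ketamine libraries lay low for the gene, which was lower with ketamine for Sphk1 and higher for the other 2. Kcnq3 was low in CTRL saline mouse 24 (185 CPM against 246). The total count was low in CSDS saline mouse 19, at 11782570 against 15923306.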

How the results depend on the processing

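The count of genes at an adjusted p under 0.05 was 0 in the fit as reported and in all alternatives but 2, each with 1 gene: Il12rb2 without mouse 11 (adjusted p = 0.0463) and Gm16332 with mice 25 to 28 left out (0.0334), both named after their values were seen and at means of 0.0484 and 0.0325 CPM. Leaving out each run of 4 consecutive mouse numbers gave 0 to 1 genes. Against 915 genes at an unadjusted p under 0.05, there were 1696 with no filter and 317 with filterByExpr, which tests fewer genes. The corresponding counts with filterByExpr were 298 for CTRL, 275 for CSDS, 262 for the interaction, 320 for the mPFC and 223 for the region difference, DESeq2 gave 559 for CSDS and 523 for the interaction, and a fit of the CSDS groups alone gave 544. With the mouse as a block, the region difference gave 0 genes at an adjusted p and 844 at an unadjusted p, against 3.34% of 31534 without it. The block took Ttr from -4.96 (p = 0.000412) to -1.94 (p = 0.0784), changed the counts of immediate early and astrocyte genes given above, and left Mfsd1, Tldc1, Mrps5, Rasal3 and Gm527 at an unadjusted p under 0.05. It took Erich5 from 0.619 (p = 0.168) to 0.797 (p = 0.00493). For the choroid plexus list it took the members lower in that difference from 6 to 3. The block could be fitted for no other comparison, since each mouse gave 1 library per region.

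The choroid plexus count of 8 lower members became 2 with limma-voom, 3 with sample weights, 4 with the run as covariate in edgeR and 4 in DESeq2, 3 with filterByExpr, 5 without mouse 9 and 2 without mice 9 and 13, where the log2 fold change of Ttr reversed to 0.45. Leaving out runs gave 5 to 9. The meningeal count of 4 became 2 with filterByExpr and 7 without mouse 11, and 2 (without mice 1 to 4) to 7 (without mice 17 to 20) over runs. With filterByExpr 6 of 12 choroid plexus and 9 of 10 meningeal members were tested. The cause was not tested. Of the 15 leading genes, all but Ttr had an unadjusted p under 0.05 in each of 24 alternatives. They had been picked for a p of at most 0.00286, and the alternatives refit the same or nearly the same libraries. That count is therefore no independent support. The depth leaves genes under 1 CPM imprecise.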

Other observations

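Genes whose ketamine estimate differed most between stress groups were named by the smallest unadjusted p of the interaction at a mean of at least 1 CPM, and each had an adjusted p of 1. Amy1, a salivary-type amylase gene, ran from 1.81 through 2.37 to 9.63 CPM in CSDS saline mice and from 8.97 through 10.4 to 19.5 CPM in CSDS ketamine mice, while CTRL mice spread from 1.94 to 17.3 CPM with saline and from 1.61 to 16.8 with ketamine. Its log2 fold change was 1.53 among CSDS mice and -0.30 among CTRL mice (interaction p = 0.00223). In the mPFC the CSDS mice ran from 1.02 to 12.6 CPM with saline and from 9.85 to 20.2 CPM with ketamine, so the same split between CSDS groups was present in the other region of the same animals. Amy1 belongs to a family of near-identical amylase copies, and how reads were divided among the copies is not given in the sources used here.

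Sema5b, a semaphorin of axon guidance, was at 0.45 among CTRL mice and -0.30 among CSDS mice (interaction p = 0.000988). Egfl6, a secreted matrix protein, was at 0.50 and -0.36 (p = 0.00147), and 2610316D01Rik, a gene without a given role, at -0.64 and 0.10 (p = 0.000446). Rps26-ps1, a ribosomal pseudogene whose reads may come from its parent gene, was at -0.44 and 0.42 (p = 0.00254). Rgs9, named as a member of the striatal and thalamic list and not by this rule, is a regulator of G protein signalling and had -0.10 among CTRL and 0.70 among CSDS mice (p = 0.00881).

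Between the regions, Mfsd1, a lysosomal transporter, was at 0.08 in the vHipp and -0.09 in the mPFC (p of the difference 0.000368), Tldc1 at 0.12 and -0.05 (p = 0.00301), and Mrps5, a protein of the mitochondrial ribosome, at 0.05 and -0.07 (p = 0.00384). Of 81 ribosomal protein genes 67 had a positive estimate in the vHipp and 71 a negative one in the mPFC, with medians of 0.02 and -0.03, where 14546 of all 28991 genes were positive in the vHipp and 14081 of the 27874 also tested in the mPFC were negative there. The region difference was positive for 77 of the 81, against 15633 of 28991 genes. Within the vHipp, 68 of the 81 were positive among CTRL mice (median 0.04; 14336 of all genes) and 49 negative among CSDS mice (median -0.01; 14141 of all genes), a difference between stress groups not tested for the list.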
